A study of Mus musculus with 12 samples.

Results

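Mitosis genes were followed in bile duct organoids from the hilum and the periphery of the liver of mice with and without a mutant Jag1 allele. The genes were 41 named members of the machinery that divides chromosomes, given as a list of gene symbols, and all 41 were found among the 53700 gene identifiers of the deposited count table. RNA was sequenced from intrahepatic cholangiocyte organoids, which are hollow spheres of cultured duct-lining cells, at passage 5 and without treatment. Each of 6 mice gave 1 hilar and 1 peripheral culture. Mice 1219, 1220 and 1224 were homozygous for Jag1 Ndr (Jag1 Ndr/Ndr, called Ndr here) and mice 1221, 1223 and 1225 carried wild-type Jag1 (WT). The 4 groups, each of 3 cultures from 3 mice, were therefore Ndr hilar, WT hilar, Ndr peripheral and WT peripheral. Ndr, also known as Nodder, is a missense allele of the Notch ligand Jag1 carried in every cell of the mouse, and these animals are used as a model of Alagille syndrome, in which bile ducts are too few. The age, sex and strain of these mice were not given in the sources used here. The groups test the cultured epithelium after several rounds of expansion, not the ducts of the liver itself.

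A dividing cell condenses its chromosomes, attaches them by their kinetochores to a spindle of microtubules, holds until each is attached, and then destroys cyclins and cohesion so that the copies part and the cell body is pinched apart. Cyclin B with Cdk1 drives entry, Polo-like and Aurora kinases build the spindle, the checkpoint kinases restrain Cdc20, and Cdc20 switches on the anaphase-promoting complex that ends mitosis. The transcripts of these genes are made mainly late in the cycle, under the MuvB and FOXM1 complexes and with the CCAAT-binding factor NF-Y, and they are low in resting cells. Cholangiocytes rarely divide in the healthy liver and divide in culture, so these transcripts are widely used to gauge how much a culture is proliferating. In a bulk library, fewer dividing cells and less RNA of these genes per cell cannot be told apart.

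The members share promoter letters that their choice did not use. RefSeq promoter windows of 300 bases (250 before to 50 after the gene start, GRCm38.p6) were at hand for 35 of the 41 members. They were searched on both strands for TTTGAA and TTCGAA, the core forms of the cell cycle homology region that MuvB complexes bind, and for CCAAT. At least 1 TTTGAA or TTCGAA lay in 82.9% of the member windows, against 19.4% of the 27025 windows of all genes. At least 1 CCAAT lay in 80.0% of the member windows, against 37.9% of all windows, and 26 of the 35 member windows (74.3%) held both, against 7.7% of all windows. The shares holding both were 38.5% of 65 windows of other mitosis genes, 17.1% of 35 windows of DNA replication genes and 0 of 14 windows of anaphase-promoting complex subunit genes. In the member windows the median position of the TTTGAA or TTCGAA matches was 9.5 bases before the start, and that of the CCAAT matches was 78.0 bases before it. A TTTGAA or TTCGAA match overlapped a CCAAT in 1 member window. The windows of 7 members are shown, 5 of them members described in every library below and the others the members whose levels varied most and least between libraries in step with the rest (Birc5 and Ncaph). Capitals mark these motifs on either strand, and each is read 5′ to 3′ on the strand of its gene.
Top2a: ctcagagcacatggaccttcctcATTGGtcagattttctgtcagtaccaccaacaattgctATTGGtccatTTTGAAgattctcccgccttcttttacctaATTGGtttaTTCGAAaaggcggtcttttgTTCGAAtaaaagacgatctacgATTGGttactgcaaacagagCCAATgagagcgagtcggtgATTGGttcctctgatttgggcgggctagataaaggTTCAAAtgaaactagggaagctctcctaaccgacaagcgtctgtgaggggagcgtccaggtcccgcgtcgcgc
Cdc20: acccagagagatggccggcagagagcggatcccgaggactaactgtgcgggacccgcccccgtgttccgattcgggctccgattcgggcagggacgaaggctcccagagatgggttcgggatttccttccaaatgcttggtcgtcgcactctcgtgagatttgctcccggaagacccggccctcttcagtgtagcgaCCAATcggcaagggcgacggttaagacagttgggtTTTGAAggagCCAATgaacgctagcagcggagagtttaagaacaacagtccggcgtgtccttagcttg
Plk1: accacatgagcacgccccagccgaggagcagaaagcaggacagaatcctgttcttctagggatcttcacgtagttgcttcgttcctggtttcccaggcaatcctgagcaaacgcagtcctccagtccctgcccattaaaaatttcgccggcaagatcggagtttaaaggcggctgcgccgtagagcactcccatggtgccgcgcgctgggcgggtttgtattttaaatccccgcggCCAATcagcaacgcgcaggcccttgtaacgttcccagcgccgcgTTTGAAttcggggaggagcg
Kif11: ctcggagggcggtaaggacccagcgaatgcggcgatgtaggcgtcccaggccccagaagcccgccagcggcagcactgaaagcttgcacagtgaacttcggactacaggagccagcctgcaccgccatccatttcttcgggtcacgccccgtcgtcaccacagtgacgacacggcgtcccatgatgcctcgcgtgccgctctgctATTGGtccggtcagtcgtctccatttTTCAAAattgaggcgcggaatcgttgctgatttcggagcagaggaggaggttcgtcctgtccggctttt
Ccnb1: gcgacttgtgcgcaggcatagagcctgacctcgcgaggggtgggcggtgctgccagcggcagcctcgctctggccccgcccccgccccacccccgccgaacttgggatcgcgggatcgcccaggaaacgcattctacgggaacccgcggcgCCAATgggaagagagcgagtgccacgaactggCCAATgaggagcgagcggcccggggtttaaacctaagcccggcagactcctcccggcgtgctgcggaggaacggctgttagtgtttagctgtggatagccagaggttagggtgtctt
Birc5: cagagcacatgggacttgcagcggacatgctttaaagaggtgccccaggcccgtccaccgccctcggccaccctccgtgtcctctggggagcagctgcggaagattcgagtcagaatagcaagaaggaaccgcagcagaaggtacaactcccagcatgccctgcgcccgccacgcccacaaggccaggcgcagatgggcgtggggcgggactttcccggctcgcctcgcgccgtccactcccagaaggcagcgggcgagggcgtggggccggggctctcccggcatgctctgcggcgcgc
Ncaph: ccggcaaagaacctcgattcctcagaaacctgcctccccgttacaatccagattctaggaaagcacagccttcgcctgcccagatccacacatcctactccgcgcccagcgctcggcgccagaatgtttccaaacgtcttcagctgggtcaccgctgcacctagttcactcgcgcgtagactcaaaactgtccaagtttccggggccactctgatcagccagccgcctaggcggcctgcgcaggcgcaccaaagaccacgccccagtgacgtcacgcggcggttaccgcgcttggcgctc
The windows lie at chr11:99024140-99024439 (minus strand) for Top2a, chr4:118437294-118437593 (minus strand) for Cdc20, chr7:122159185-122159484 (plus strand) for Plk1, chr19:37376132-37376431 (plus strand) for Kif11, chr13:100786437-100786736 (minus strand) for Ccnb1, chr11:117848987-117849286 (plus strand) for Birc5 and chr2:127133905-127134204 (minus strand) for Ncaph. Top2a held 4 TTTGAA or TTCGAA and 6 CCAAT, Cdc20 held 1 and 2, Plk1 and Kif11 held 1 of each, and Ccnb1 held 2 CCAAT and no TTTGAA or TTCGAA. The windows of Birc5 and Ncaph held neither, which says only that these letters are not in those bases. A match is a description of sequence and not a measured binding site.

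The 12 libraries held 6708822 to 16030880 counts, and every member had at least 24 counts in every library. Levels are given as CPM (counts relative to library size, scaled between libraries by TMM), and members are compared between libraries by centred log2 CPM, in which a gene's mean over the 12 libraries is 0. Jag1 itself read 89.4, 195.8 and 139 CPM in Ndr hilar, 186, 99.6 and 73.1 CPM in WT hilar cultures, and in the periphery 154, 80.4 and 73.7 CPM in Ndr and 94.5, 179 and 110.1 CPM in WT cultures. A missense allele need not alter its level, so this does not check the labels. The 10 cholangiocyte markers summed to 10569 to 19793 CPM, while endothelial markers summed to at most 0.618 CPM and immune markers to at most 40.3 CPM. Nearly all of the immune sum was Csf1r (5.87 to 37.0 CPM) and Cd68 (1.45 to 10.7 CPM), with Adgre1 at 0 in every library and Ptprc at most 0.106 CPM. Of 10 fibroblast and stellate markers, Dcn and Lum were at 0 throughout and the sum reached at most 28.9 CPM, nearly all of it Reln. The 8 hepatocyte markers summed to 2.64 to 182 CPM. The 4 mesothelial markers summed to 37.5 to 658 CPM, nearly all of it Msln, and the highest sum was in the WT hilar culture of mouse 1225. The WT hilar culture of mouse 1225 and the Ndr peripheral culture of mouse 1220 stood apart in the mitosis genes. The members' median differences that rest on them are given with and without them. Those of the other gene lists are given only with them. Derivation dates followed genotype in part: the WT cultures of mice 1221 and 1223 were derived on 15 June 2021, the Ndr cultures of mice 1219 and 1220 on 17 and 18 June, and only 21 June gave both genotypes (Ndr mouse 1224 and WT mouse 1225).

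The 41 genes moved together from library to library, and the largest movement followed single cultures. The mean centred log2 CPM of the 41 genes was -0.48, -1.58 and -1.32 in the Ndr hilar cultures of mice 1219, 1220 and 1224, against -0.43, -1.03 and 1.91 in the WT hilar cultures of mice 1221, 1223 and 1225. In the periphery it was 0.34, 1.31 and 0.27 in the Ndr cultures and 0.12, 0.35 and 0.55 in the WT cultures. Except for mouse 1225, every hilar culture was below every peripheral culture, and WT hilar 1225 was above all others. The group means were -1.13 ± 0.57 in Ndr hilar, 0.15 ± 1.55 in WT hilar, 0.64 ± 0.58 in Ndr peripheral and 0.34 ± 0.21 in WT peripheral cultures (SD, n = 3 each), and the WT hilar mean was -0.73 without mouse 1225. WT hilar 1225 was the highest library for 39 of the 41 members, against 12.9% of the 15014 genes tested. The exceptions were Aurkb and Cenpa, which were highest in Ndr peripheral 1220, the highest library for 9.2% of the tested genes. Ndr peripheral 1220 was also the next highest for 35 members. The lowest library was Ndr hilar 1220 for 30 members, against 18.4% of the tested genes. The first principal component held 93.4% of the members' variance over the libraries, against 30.2% for all tested genes. Other short lists also had high shares, at 88.2% for 81 other mitosis genes and 83.8% for 44 DNA replication genes. The share was 52.6% for 20 genes of cell cycle arrest and 53.1% for 15 anaphase-promoting complex subunit genes.

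**Figure D1:**
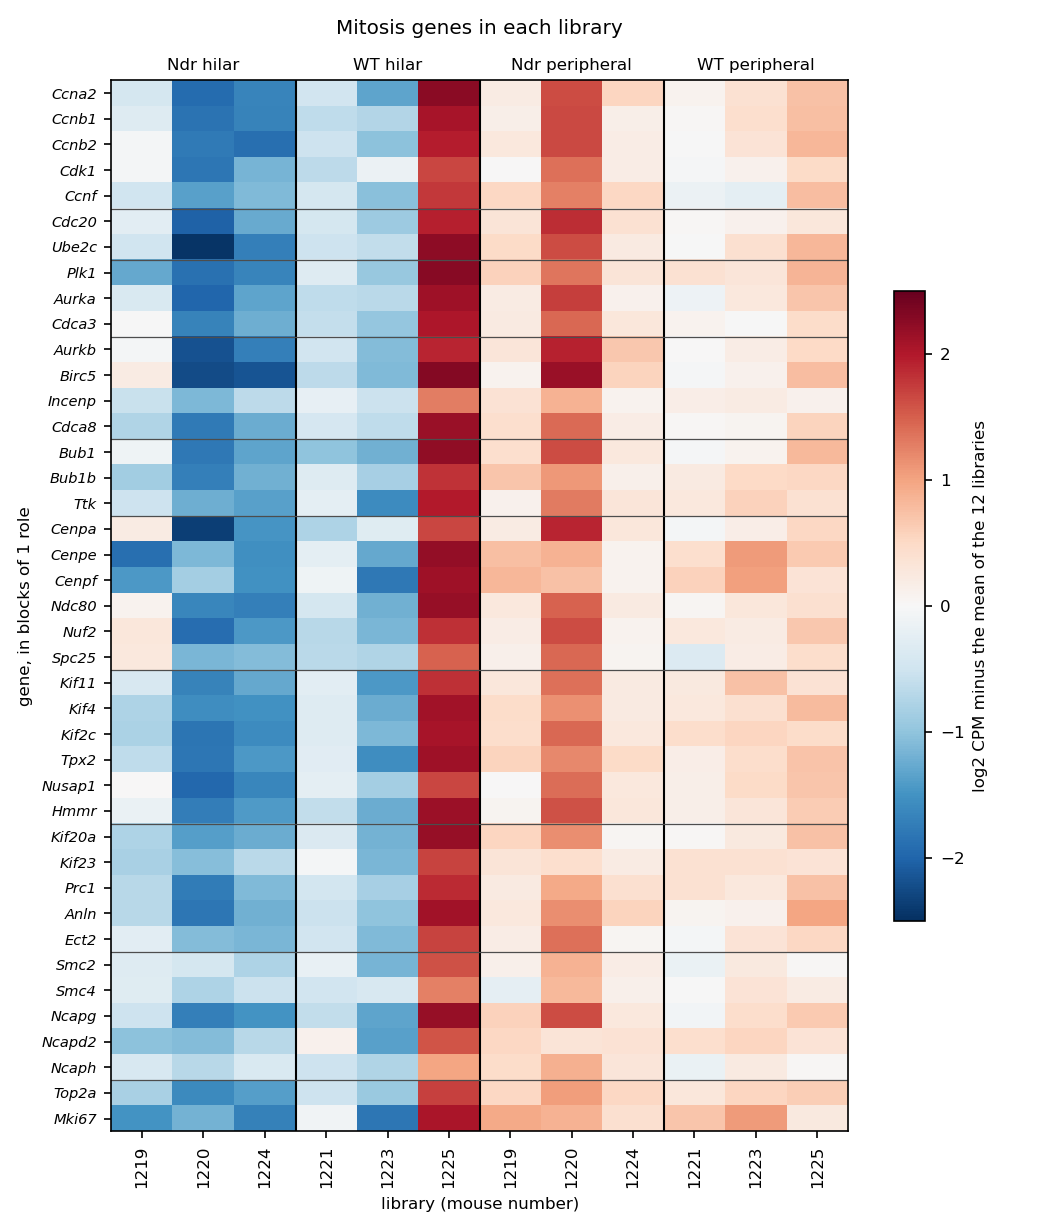
Colour gives the log2 CPM of each of the 41 mitosis genes (rows, in blocks of 1 role) in each of the 12 libraries (columns, by group and mouse) minus that gene's mean over the libraries, with red above and blue below the mean. The WT hilar column of mouse 1225 is red in every row, and the columns of the other hilar cultures are mostly blue.

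**Figure D2:**
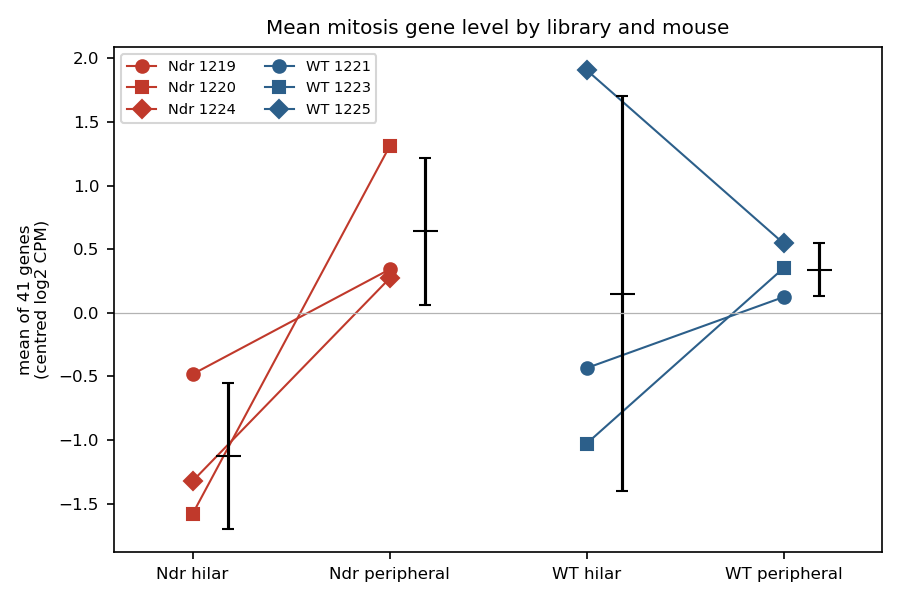
Points give the mean centred log2 CPM of the 41 genes in each library, lines join the hilar and peripheral culture of 1 mouse, and black bars give the group mean and SD (n = 3). The lines of 5 mice run up to the periphery, and that of WT mouse 1225 runs down, with its hilar culture at 1.91.

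Entry into mitosis is driven by Cdk1 with its cyclins. Ccnb1, cyclin B1, read 14.6, 4.96 and 5.62 CPM in Ndr hilar cultures, against 11.8, 10.97 and 77.6 CPM in WT hilar cultures. In the periphery it read 20.4, 57.7 and 20.4 CPM in Ndr peripheral cultures, against 18.7, 24.8 and 30.8 CPM in WT peripheral cultures. The WT hilar value of mouse 1225 was above every other Ccnb1 value, and the other WT hilar values lay within the Ndr hilar range. The mean centred log2 CPM of Ccna2, Ccnb1, Ccnb2, Cdk1 and Ccnf together was -0.27, -1.74 and -1.49 in Ndr hilar cultures, against -0.54, -0.85 and 1.94 in WT hilar cultures. Between its lowest and highest library Cdk1, the kinase itself, spanned 11.2 times, Ccnf 9.05 times and Ccna2, cyclin A2, 18.5 times.

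Among the kinases of spindle assembly, Plk1, the Polo-like kinase, read 7.16, 4.70 and 5.49 CPM in Ndr hilar cultures, against 14.03, 9.11 and 86.7 CPM in WT hilar cultures. The Ndr and WT hilar groups did not overlap for Plk1, since its highest Ndr value was below its lowest WT value. In the periphery Plk1 read 26.6, 45.1 and 22.2 CPM in Ndr peripheral cultures, against 23.1, 22.01 and 32.01 CPM in WT peripheral cultures, and there the groups overlapped. Aurka, the Aurora kinase of the spindle poles, read 14.1, 4.57 and 7.28 CPM in Ndr hilar cultures, against 11.9, 11.6 and 81.4 CPM in WT hilar cultures. Its Ndr hilar culture of mouse 1219 was above the WT cultures of mice 1221 and 1223.

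The chromosomal passenger complex joins the kinase Aurkb to the scaffold Incenp, survivin (Birc5) and borealin (Cdca8), and corrects faulty attachments. Aurkb read 17.9, 3.92 and 5.49 CPM in Ndr hilar cultures, against 13.2, 8.65 and 70.2 CPM in WT hilar cultures. Its peripheral levels were 22.7, 70.4 and 29.6 CPM in Ndr peripheral cultures, against 18.7, 21.2 and 26.3 CPM in WT peripheral cultures. The peak of Aurkb was the Ndr peripheral culture of mouse 1220, by a narrow margin over WT hilar 1225. Within the complex the size of the swings differed: Birc5 spanned 24.5 times between its lowest and highest library and Incenp 5.40 times. Per kilobase of exon model, Incenp averaged 10.2 CPM (mean of 12 libraries), against 6.99 for Birc5, 8.72 for Aurkb and 4.43 for Cdca8. The length of an exon model is not a measured transcript length, so these values do not rank the members of the complex by transcript abundance.

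Spindle checkpoint kinases hold the cell until its chromosomes are attached. Bub1 read 23.8, 7.32 and 10.2 CPM in Ndr hilar cultures, against 12.7, 11.1 and 121 CPM in WT hilar cultures. In the periphery it read 34.2, 79.9 and 30.6 CPM in Ndr peripheral cultures, against 25.1, 27.3 and 45.5 CPM in WT peripheral cultures. Bub1 was higher in Ndr hilar 1219 than in the WT hilar cultures of mice 1221 and 1223. Bub1b, the BubR1 protein that binds Cdc20, read 15.5, 8.49 and 12.1 CPM in Ndr hilar cultures, against 22.6, 15.9 and 99.2 CPM in WT hilar cultures, and these groups did not overlap. Ttk, the Mps1 kinase, read 8.22, 4.96 and 4.47 CPM in Ndr hilar cultures, against 9.88, 3.86 and 47.4 CPM in WT hilar cultures.

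Ndc80, the kinetochore protein that grips microtubules, read 12.1, 3.53 and 3.32 CPM in Ndr hilar cultures, against 8.23, 4.79 and 51.9 CPM in WT hilar cultures. Peripheral levels of Ndc80 were 13.6, 31.6 and 13.3 CPM in Ndr peripheral cultures, against 11.8, 13.8 and 14.9 CPM in WT peripheral cultures. Its partners Nuf2 and Spc25, of the same complex, followed it. Each of the 3 was higher in Ndr hilar 1219 than in the WT hilar cultures of mice 1221 and 1223. The long gene Cenpe took another order. Cenpe, the kinetochore motor, read 6.09, 10.5 and 7.79 CPM in Ndr hilar cultures, against 19.5, 9.42 and 107 CPM in WT hilar cultures, with its lowest library in Ndr hilar 1219. Cenpa, the histone variant that marks the centromere, read 21.9, 3.53 and 6.64 CPM in Ndr hilar cultures, against 10.98, 15.3 and 60.7 CPM in WT hilar cultures.

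Kif11, the kinesin that pushes the spindle poles apart, read 25.5, 10.6 and 13.8 CPM in Ndr hilar cultures, against 28.4, 12.4 and 122 CPM in WT hilar cultures. Peripheral levels of Kif11 were 41.6, 88.9 and 39.7 CPM in Ndr peripheral cultures, against 40.5, 56.3 and 43.7 CPM in WT peripheral cultures. Its lowest peripheral value was above every hilar value but that of mouse 1225. Tpx2, Kif2c, Kif4, Nusap1 and Hmmr, which build or trim spindle microtubules, had WT hilar 1225 as their highest library and a hilar culture as their lowest.

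Release of the chromosomes needs Cdc20 and the conjugating enzyme Ube2c at the anaphase-promoting complex. Cdc20 read 28.1, 8.23 and 13.9 CPM in Ndr hilar cultures, against 24.8, 17.9 and 131 CPM in WT hilar cultures. Its peripheral levels were 42.1, 122 and 44.01 CPM in Ndr peripheral cultures, against 34.5, 36.2 and 41.4 CPM in WT peripheral cultures. The Ndr and WT peripheral groups did not overlap for Cdc20, although the Ndr cultures of mice 1219 and 1224 were within a few CPM of WT 1225. Ube2c spanned 26.8 times between its lowest library, Ndr hilar 1220, and its highest, WT hilar 1225. For division of the cell body, Prc1, which bundles the microtubules of the central spindle, read 26.5, 12.7 and 20.04 CPM in Ndr hilar cultures, against 31.4, 24.1 and 158 CPM in WT hilar cultures. The same gene read 50.6, 83.8 and 57.4 CPM in Ndr peripheral cultures, against 56.1, 52.03 and 71.9 CPM in WT peripheral cultures. Kif20a, Kif23, Anln and Ect2, the other genes of cytokinesis, peaked in WT hilar 1225.

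Top2a, the topoisomerase that untangles sister chromosomes, was among the most abundant members. It read 89.4, 51.9 and 60.1 CPM in Ndr hilar cultures, against 108, 82.03 and 508 CPM in WT hilar cultures. Its peripheral levels were 224, 323 and 223 CPM in Ndr peripheral cultures, against 190.3, 225 and 239.5 CPM in WT peripheral cultures. Mki67, the protein that coats mitotic chromosomes and is the usual stain for proliferation, read 23.2, 28.9 and 20.04 CPM in Ndr hilar cultures, against 61.3, 18.7 and 269 CPM in WT hilar cultures. Peripheral Mki67 levels were 126, 120.1 and 86.00 CPM in Ndr peripheral cultures, against 105, 138 and 78.01 CPM in WT peripheral cultures. Both genes had their highest value in WT hilar 1225, and all other hilar values were below all peripheral values. Per kilobase of exon model Top2a averaged 21.5 CPM over the 12 libraries, Smc4 22.6, Cdc20 24.3 and Ndc80 2.35. Condensin, which compacts chromosomes, had the smallest swings. The mean of its 5 genes was -0.52, -0.94 and -0.78 in Ndr hilar, -0.34, -1.0 and 1.52 in WT hilar, 0.29, 0.91 and 0.25 in Ndr peripheral and 0.01, 0.36 and 0.25 in WT peripheral cultures (centred log2 CPM). Ncaph spanned 3.36 times and Smc4 4.10 times between lowest and highest library, while Ncapg, of the same complex, spanned 15.2 times.

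In hilar organoids, Ndr against WT, every mitosis gene had a lower fitted level in Ndr and none passed the test. The median log2 difference was -1.79 over the 41 members, against 0.00 over all 15014 genes tested, of which 50.5% were below 0, and it ranged from -0.62 (Ncaph) to -2.65 (Plk1). In edgeR's quasi-likelihood test with Benjamini-Hochberg adjustment 0 members and 0 genes (0% of 15014) had an adjusted p under 0.05, and the members' adjusted p values ran between 0.750 and 0.812. Before adjustment, 28 of the 41 had a p under 0.05 and were lower, against 3.68% of all tested genes. The groups did not overlap, with Ndr lower, for 4 members (Plk1, Incenp, Cdca8 and Bub1b), against 4.18% of all genes. The 3 smallest p values were those of Plk1 (-2.65 ± 0.72, log2 difference ± SE), Cenpe (-2.48 ± 0.72) and Bub1b (-1.93 ± 0.59), each with an adjusted p of 0.750. The other members described in every library had differences of -2.27 ± 0.71 for Mki67, -1.98 ± 0.77 for Ccnb1, -1.70 ± 0.70 for Kif11, -1.85 ± 0.61 for Prc1 and -1.79 ± 0.58 for Top2a. Those of Bub1 (-1.80 ± 0.85), Cdc20 (-1.78 ± 0.74), Ndc80 (-1.76 ± 0.82) and Aurkb (-1.74 ± 0.80) were of like size. DESeq2 called 1 member, Plk1 (log2 difference -2.69, adjusted p = 0.0322), and 0.28% of all genes. limma-voom, also on the raw counts, called 0 members and 0% of genes, and its median was -1.33. There 7 members had an unadjusted p under 0.05, against 2.31% of genes that did so and were lower.

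Most of that difference rested on WT hilar 1225. Without it, the median was -0.37, with 36 members below 0 and 5 above it (Smc2, Ncaph, Bub1, Nuf2 and Spc25). Then 2 members, Plk1 (-1.01 ± 0.35) and Cenpe (-0.85 ± 0.38), had an unadjusted p under 0.05, against 1.94% of all genes that did so and were lower, and all adjusted p values in edgeR were 1.0. Leaving out each other hilar culture in turn kept the median between -2.33 and -1.56. With derivation date as a factor the median was -2.87. That fit has a term per date that both regions share, so its genotype comparisons rest largely on the hilar and peripheral cultures of 21 June together. On that day the mean centred log2 CPM was -1.32 in Ndr hilar 1224 and 1.91 in WT hilar 1225.

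**Figure D3:**
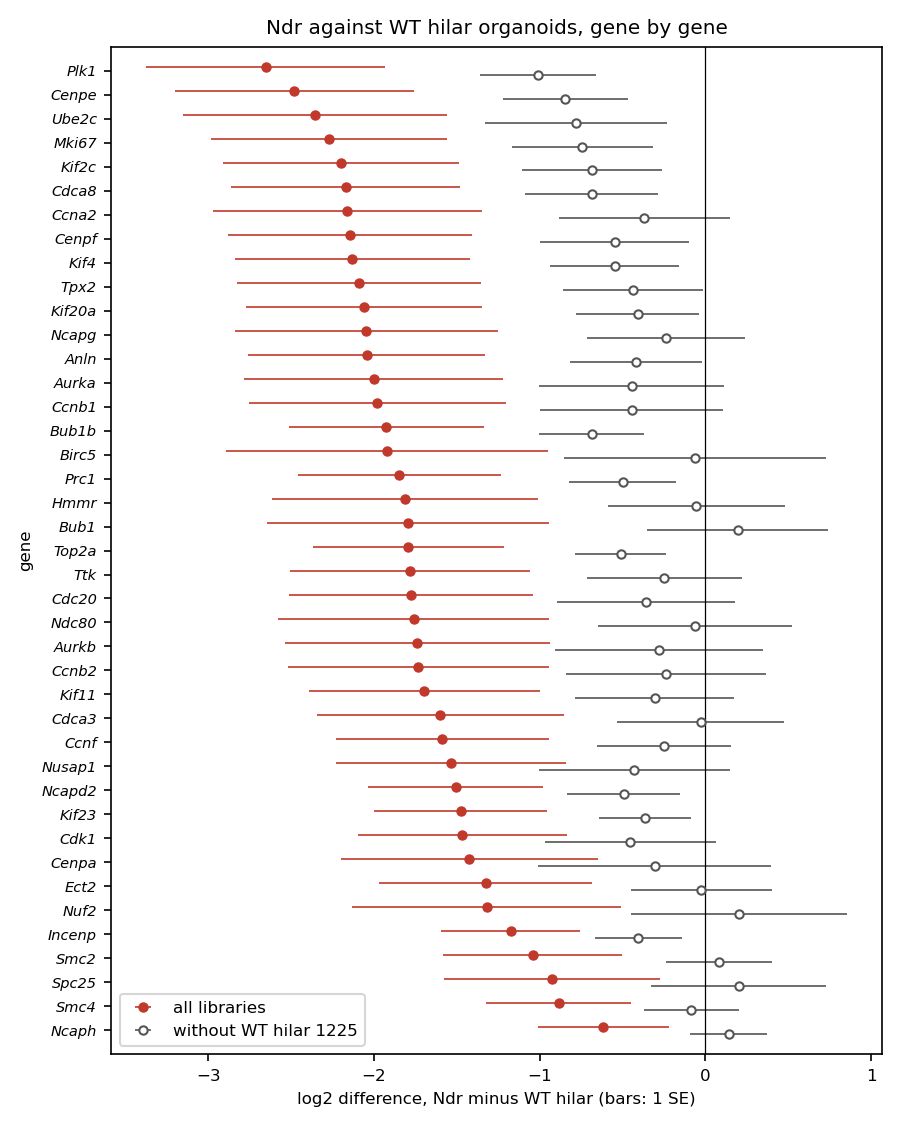
Each row is a mitosis gene, with the log2 difference of Ndr minus WT hilar organoids from edgeR (bars, 1 SE) over all libraries (filled red) and without WT hilar 1225 (open grey). With all libraries the values run from -2.65 (Plk1) to -0.62 (Ncaph), and without that library 5 of them lie above 0.

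In peripheral organoids, Ndr against WT, the differences were small and mostly positive, and none passed the test. The median was 0.39, against 0.03 over all genes, with 37 members above 0 and 4 below it (Cenpe, Cenpf, Kif23 and Ncapd2), where 45.5% of genes were below 0. In edgeR 0 members and 0% of genes were called, 0 members had an unadjusted p under 0.05, against 1.45% of genes that did so and were higher, and DESeq2 also called 0 members, against 0.04% of genes, and no member had an unadjusted p below 0.05 there (0 of 41). Cdc20 and Ncaph were the 2 members whose groups did not overlap, with Ndr higher, against 5.41% of genes. The smallest p values belonged to Ncaph (0.53 ± 0.39, log2 difference ± SE), Cdc20 (0.89 ± 0.71) and Aurkb (0.89 ± 0.77), each with an edgeR adjusted p of 1.0. Differences were 0.05 ± 0.68 for Mki67, 0.23 ± 0.56 for Top2a, 0.41 ± 0.74 for Ccnb1, 0.28 ± 0.67 for Plk1 and 0.56 ± 0.82 for Bub1. Ndc80 (0.53 ± 0.79), Kif11 (0.28 ± 0.67) and Prc1 (0.09 ± 0.59) differed by less than 1 SE. Without Ndr peripheral 1220 the median was -0.064, with 28 members below 0 and 13 above it. With derivation date as a factor it was -1.25. The date terms are shared by both regions, so the hilar cultures of 21 June, WT hilar 1225 among them, also entered this value. It is not the peripheral difference of that day alone. On 21 June, the day that held both genotypes, the mean centred log2 CPM was 0.27 in Ndr peripheral 1224 and 0.55 in WT peripheral 1225.

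With the cultures of each mouse summed, Ndr against WT had a median of -0.34 over the members, against 0.00 over the 15401 genes tested, with 37 members below 0, against 50.7% of genes. The 4 above 0 were Ncaph, Cenpa, Aurkb and Spc25. edgeR called 0 members and 0% of genes, 0 members had an unadjusted p under 0.05, against 2.93% of genes that did so and were lower, and DESeq2 called 0 members and 0.734% of genes, with 4 members under that unadjusted p and lower, against 3.45% of genes. The smallest p values belonged to Cenpf (-0.80 ± 0.35, log2 difference ± SE), Mki67 (-0.67 ± 0.30) and Cenpe (-0.89 ± 0.41), each with an edgeR adjusted p of 0.903. Mki67 totals were 71.6, 79.97 and 58.8 CPM in Ndr mice 1219, 1220 and 1224, against 80.7, 85.7 and 168 CPM in WT mice 1221, 1223 and 1225. Every Ndr total of Mki67 was below every WT total, by a narrow margin between Ndr mouse 1220 and WT mouse 1221. The groups did not overlap, with Ndr lower, for 2 members (Cenpf and Mki67), against 5.78% of genes. Without mouse 1225 the median over the members was 0.38, with 36 above 0.

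Hilar against peripheral, 5 of the 6 mice had lower mitosis genes in the hilar culture. The mean difference over the 41 genes was -0.82, -2.89 and -1.59 log2 CPM in Ndr mice 1219, 1220 and 1224, and -0.56, -1.38 and 1.36 in WT mice 1221, 1223 and 1225. In mice 1220, 1224, 1221 and 1223 all 41 members were lower in the hilar culture, in mouse 1219 it was 38, with Birc5, Nuf2 and Spc25 higher, and in mouse 1225 it was 0. Of all tested genes, 48.7%, 50.7% and 52.6% were lower in the hilar culture of Ndr mice 1219, 1220 and 1224, and 47.1%, 50.7% and 52.8% in that of WT mice 1221, 1223 and 1225. For 38 members the hilar culture was lower in every mouse but 1225 and higher in that one, a pattern that 2.98% of the tested genes had.

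Within Ndr organoids the median hilar minus peripheral difference was -1.84, against -0.01 over all genes, with 41 of 41 below 0, against 51.3% of genes. For 38 members the groups did not overlap, with hilar lower, against 7.93% of genes; the exceptions were Birc5, Nuf2 and Spc25. Before adjustment 33 members had a p under 0.05 and were lower, against 5.7% of genes, and after it edgeR called 0 members and 0% of genes. Plk1 (-2.43 ± 0.71, log2 difference ± SE), Top2a (-1.93 ± 0.58) and Bub1b (-1.92 ± 0.59) had the smallest p values, each with an edgeR adjusted p of 0.418. DESeq2 called 0 members and 0.48% of genes, and 32 members had an unadjusted p under 0.05 and were lower, against 6.64% of genes. Leaving out each Ndr culture in turn kept all 41 below 0, with medians between -2.22 and -1.27. Without Ndr hilar 1220, 7 members had an unadjusted p under 0.05 and were lower, against 2.73% of genes, and without Ndr peripheral 1220 it was also 7, against 4.71% of genes.

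Within WT organoids the sign of the difference rested on mouse 1225 and on the fit. The median hilar minus peripheral difference was 0.38 with all 41 above 0, against 0.03 over all genes, of which 46.1% were below 0, and edgeR called 0 members and 0% of genes, with 0 members at an unadjusted p under 0.05, against 0.286% of genes that did so and were higher. DESeq2 called 0 members and 0% of genes too, and 0 members had an unadjusted p below 0.05 there. Cdca8 (0.73 ± 0.66, log2 difference ± SE), Smc2 (0.49 ± 0.54) and Cdc20 (0.62 ± 0.71) had the smallest p values, each with an edgeR adjusted p of 1.0. Without WT hilar 1225 the median was -1.08, all 41 were below 0, and 22 had an unadjusted p under 0.05, against 0.879% of genes that did so and were lower. With mouse 1225 kept and the mouse as a block the median was -0.21, with 36 members below 0. limma-voom gave -0.20, also with 36 below 0. The group means of centred log2 CPM were likewise lower in hilar (0.15) than in peripheral (0.34) WT cultures.

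Over both genotypes the median was -0.72 with all 41 members below 0, against 0.02 over all genes, of which 47.8% were below 0. Top2a (-0.92 ± 0.40, log2 difference ± SE; edgeR adjusted p = 0.805), Mki67 (-1.04 ± 0.48) and Bub1b (-0.82 ± 0.40) had the smallest p values; edgeR called 0 members and 0% of genes, and 1 member, Top2a, had an unadjusted p under 0.05, against 3.37% of genes that did so and were lower. DESeq2 called 0 members and 0.02% of genes, with 4 members under that unadjusted p and lower, against 3.96% of genes. limma-voom gave a median of -1.02 and 12 members under that unadjusted p, against 6.31% of genes in either direction. With the mouse as a block, which compares the cultures of the same animal, the median was -1.01 and 14 members had an unadjusted p under 0.05, against 3.17% of genes that were lower. Without WT hilar 1225 the median was -1.44 and all 41 members had an unadjusted p under 0.05, against 5.79% of genes that were lower. The smallest edgeR adjusted p among them was then 0.0806, so none was called.

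The genotype by region interaction (the Ndr hilar minus peripheral difference less the WT one) had a median of -2.23, with all 41 below 0, against -0.05 over all genes, of which 53.9% were below 0. edgeR called 0 members and 0% of genes, and 21 members had an unadjusted p under 0.05, against 1.92% of genes that did so and were lower. Plk1 (-2.94 ± 0.97, log2 difference ± SE), Cdca8 (-2.72 ± 0.95) and Bub1b (-2.19 ± 0.81) had the smallest p values, each with an edgeR adjusted p of 0.994. DESeq2 called 0 members and 0.0266% of genes, with 27 members under that unadjusted p and lower, against 2.87% of genes. limma-voom gave a median of -1.59 and 0 members under that unadjusted p, against 2.23% of genes in either direction. With the mouse as a block the median was -1.60 and 3 members had an unadjusted p under 0.05 and were lower, against 1.19% of genes. Without WT hilar 1225 it was -0.69, and 2 members had one, against 0.547% of genes that were lower. Without Ndr peripheral 1220 the edgeR median was -1.80, and 3 members had an unadjusted p under 0.05, against 1.92% of genes in either direction.

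The members also differed among themselves, and only part of these differences went with the length of their exon models. Slopes of each gene's log2 CPM on the mean of the 41 ran between 0.53 (Ncaph) and 1.33 (Birc5), with Smc4 (0.54) and Incenp (0.64) near the low end and Ube2c (1.23) and Ccna2 (1.21) near the high end. These slopes did not sort the members by length, since the exon models of Ncaph and Ccna2 are 4307 and 4083 bases. The second principal component held 4.06% of the members' variance and set Cenpf, Mki67 and Cenpe, with exon models of 15433, 10061 and 8620 bases, against Cenpa, Birc5 and Cdk1 (5860, 3402 and 4934 bases). Its order was not that of length throughout: Plk1 (2199 bases) lay on the side of Cenpf, and Nuf2 (6341 bases) on that of Cenpa. In Ndr hilar 1219 the long genes were low (Cenpe -1.88, Mki67 -1.49, Cenpf -1.44, centred log2 CPM), while Nuf2, Spc25, Cenpa and Birc5 were above their own means. The correlation of centred log2 CPM with log2 exon length, across genes of 1 library, was -0.43 over the 41 members and -0.40 over 14986 tested genes in that library. It was -0.55 and -0.30 in Ndr peripheral 1220, 0.42 and 0.27 in Ndr hilar 1220, -0.38 and -0.28 in WT hilar 1223, and -0.07 and -0.05 in WT hilar 1225. In 10 of the 12 libraries the trend among members had the sign of that over all tested genes. The exceptions, both with a weak trend over all genes, were WT peripheral 1225 (-0.16 over the members and 0.011 over all tested genes) and Ndr peripheral 1224 (0.0058 and -0.017). Genes are not independent replicates. After the trend of each library on exon length was removed, the medians were -1.82 for Ndr against WT in hilar and 0.42 in peripheral organoids, and all 41 members were above 0 in the periphery.

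Genes with neighbouring roles were set beside the members. In hilar organoids, Ndr against WT, 81 other mitosis genes had a median of -1.27 with all 81 below 0, and 33 had an unadjusted p under 0.05. The 44 DNA replication genes had a median of -0.72 with 43 below 0, and 9 had such a p. Of all tested genes 50.5% were below 0, and 3.68% had such a p and were lower. WT hilar 1225 was the highest library for the means of both lists, at 1.56 for other mitosis and 1.24 for DNA replication genes (centred log2 CPM). The differences of these lists are not given here without that library. The 20 genes of cell cycle arrest, such as Cdkn1a, had a median of 0.00 with 10 on each side, and the 15 core subunits of the anaphase-promoting complex had a median of 0.02 with 7 below 0. edgeR called no gene of these lists. The smallest p values belonged to Espl1, separase (-2.63 ± 0.69, log2 difference ± SE), and Gtse1 (-1.86 ± 0.50) among other mitosis genes, and to Clspn, claspin (-1.89 ± 0.57), and Uhrf1 (-1.76 ± 0.60) in DNA replication, each with an edgeR adjusted p of 0.750. Cdkn1c, a Cdk inhibitor (1.26 ± 0.58), and Trp53inp1 (0.46 ± 0.31) led the arrest genes, and Cdc26 (0.34 ± 0.29) and Cdc16 (0.28 ± 0.24) led the subunits, which are present through the whole cycle. In the periphery the medians were 0.35, 0.44, 0.26 and 0.11 for other mitosis, DNA replication, arrest and subunit genes.

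By mouse, the hilar minus peripheral mean of the other mitosis genes was -0.43, -2.46 and -1.22 in Ndr mice 1219, 1220 and 1224, and -0.31, -1.08 and 1.11 in WT mice 1221, 1223 and 1225. DNA replication genes had -0.22, -1.78 and -0.99 in Ndr mice and -0.16, -1.0 and 1.07 in WT mice. The order of the mice was that of the 41 members in the other mitosis list; in DNA replication genes mice 1224 and 1223, at nearly the same value, changed places. Arrest genes had -0.24, -0.09 and -0.19 in Ndr mice and 0.25, 0.09 and -0.46 in WT mice, and the subunit genes had 0.21, -0.25 and -0.03 in Ndr mice and 0.10, 0.05 and 0.13 in WT mice.

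**Figure D4:**
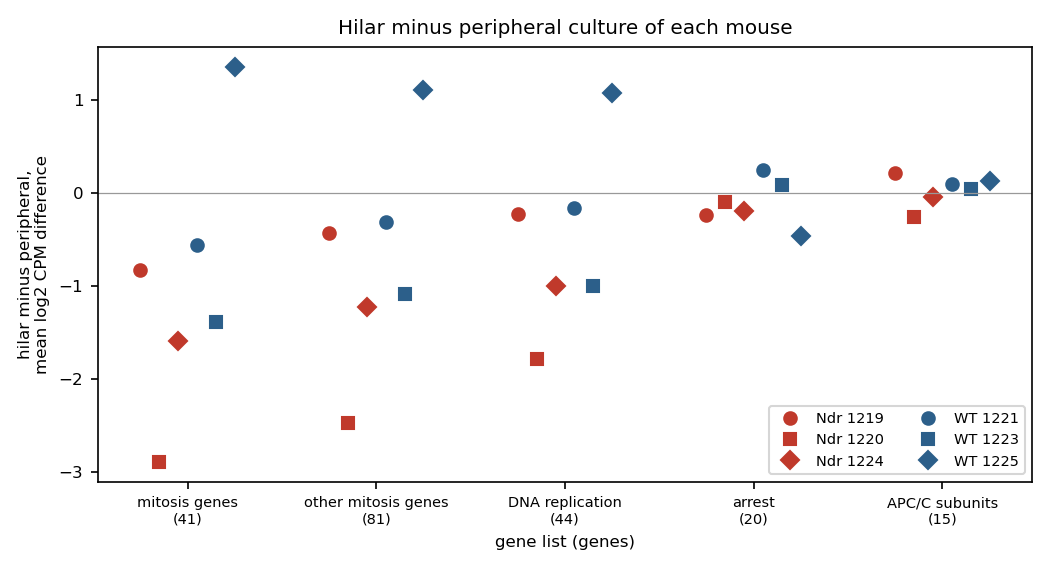
Points give the mean hilar minus peripheral log2 CPM difference of a gene list in each mouse (red, Ndr; blue, WT), for the 41 mitosis genes and 4 other lists. The 3 lists of dividing cells spread from -2.89 to 1.36 with WT mouse 1225 above 0, and the arrest and subunit lists stay between -0.46 and 0.25.

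The authors' deposited normalized table gave another picture of genotype. In it the mean of the 41 genes, centred on log2(value + 1), was -1.29, -2.40 and -1.44 in Ndr hilar, 0.53, -0.56 and 1.57 in WT hilar, -0.29, 0.04 and 0.02 in Ndr peripheral and 1.5, 1.85 and 0.48 in WT peripheral cultures. The Ndr values were below the WT values in both regions. Against WT, limma on these values called 30 members lower in Ndr hilar organoids (9.86% of genes called, median -2.29), 0 in the periphery (0.613% of genes called, median -1.41) and all 41 in the mouse totals (48% of genes called, median -1.79). No header or label says how the table was made, and it is not a scaling of the raw counts. ComBat-seq, a batch adjustment of counts, was run on the raw counts with derivation day as the batch and genotype kept. Divided by 1 factor per library it matched the deposited value to within 0.5 counts in 99.2% of 242530 nonzero entries, against 19.8% for raw counts and 22.2% with no group kept. Days 15, 17 and 18 held 1 genotype each. In the table, the members' values relative to raw counts were shifted (median over the 24 to 41 members with enough counts in a library, log2, relative to all genes) by 0.55 to 1.53 in the libraries of day 15, by -1.33 to -0.61 in those of days 17 and 18, and by -0.38 to -0.03 in those of day 21. In the adjustment that matched, genotype was an input, so calls made on these values are not independent of the labels.

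**Figure D5:**
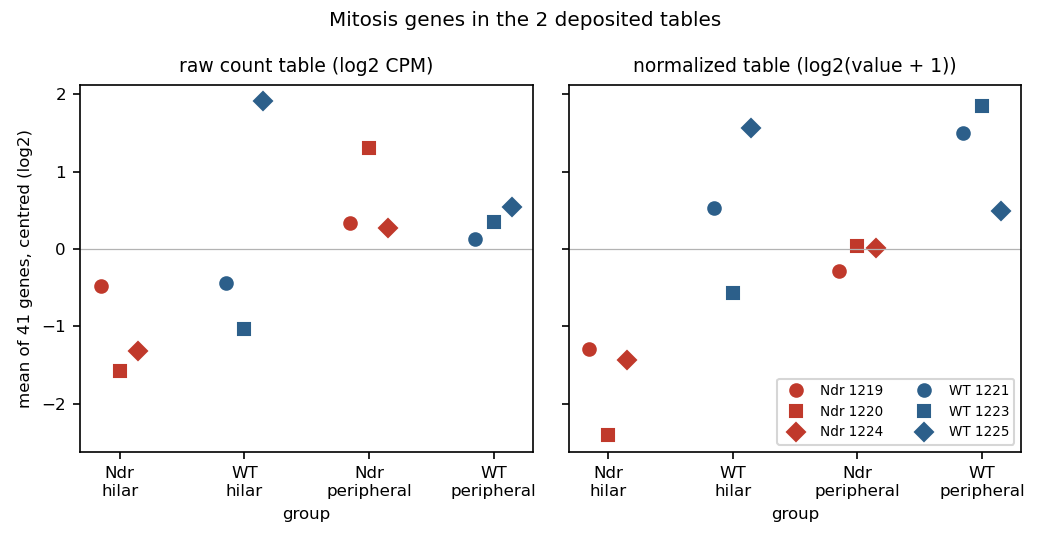
Points give the mean of the 41 genes in each library, centred on the 12 libraries, from the raw counts (left, log2 CPM) and from the deposited normalized table (right, log2(value + 1)), by group (red, Ndr; blue, WT). In the right panel the WT peripheral cultures of mice 1221 and 1223 lie at 1.5 and 1.85, against 0.12 and 0.35 in the left panel.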

How the data were processed

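RNA-seq counts of 12 libraries were used. The authors deposited raw counts per gene; the submitters' processing notes name featureCounts, GRCm39 and DESeq2 1.34.0. The aligner, annotation release and strand setting were not given in the sources used here. A second deposited table holds normalized signal values, with no header saying how it was made. Raw counts of overlapping genes may be shared between them. The groups were 3 mice each, taken from the labels.

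Symbols (52093 of 53700 identifiers) and exon lengths came from GENCODE M21 on GRCm38. Raw counts were fitted with edgeR 4.0.16 in R 4.3.3 (filterByExpr, TMM, robust quasi-likelihood F test) over all 12 libraries with 1 coefficient per group (8 residual degrees of freedom, 15014 genes), and over 6 mouse totals (4 residual degrees of freedom, 15401 genes). Adjusted p values are Benjamini-Hochberg over all genes tested, with a threshold of 0.05; SEs were computed back from the F statistic. All 41 members passed the filter on low counts. With 3 mice a group, the smallest two-sided p of an exact permutation test is 0.1. The fit was also run on simulated counts of independent genes with 1 fixed spread, no culture that stood apart and no pairing by mouse. It therefore does not show how the fit behaves where genes move together and 1 culture stands apart, as here. Alternatives were DESeq2 1.42.0, limma 3.58.1, other scalings and filters, each library left out, derivation date, the replicate block, and, added after the data were seen, removal of each library's exon-length trend. The signal values were tested with limma on log2(value + 1) and set beside ComBat-seq counts (sva 3.50.0). CPM uses TMM-scaled library sizes, and log2 CPM adds a prior count of 2.

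The members and lists were chosen with earlier results of these data known. Of the members, 10 fixed by role are given in every library; in each comparison the called members or the 3 of smallest p are named, and, of each other list, the 2 of smallest p in hilar organoids. The mouse number pairs the hilar and peripheral culture of an animal. The correlation of the deviations of a mouse's cultures from their group means ranged between -0.34 and 0.45 over the 6 mice.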

Additional observations from a re-analysis of the deposited data

Results flagged for a closer look

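In a set of 6 cultures of 1 region, a value is given here when its gap to the nearest other value was large. The gap, as a share of the whole range, had to pass Dixon's 95% critical value. Chance alone passes it in about 1 of 20 sets of normally distributed values. The shares of single genes were taken on CPM and that of the mean on centred log2 CPM. An upward gap takes a smaller share on log2 CPM. There Aurkb, at 1.91 in WT hilar 1225, -0.05 in Ndr hilar 1219 and -2.18 in Ndr hilar 1220, would not pass. Not every other gene named here would pass on that scale. In the hilar cultures the WT culture of mouse 1225 stood apart upward in the mean of the 41 genes (share 0.672). On CPM it did so in all 10 members given in every library. The shares were 0.830 for Mki67, 0.876 for Top2a, 0.867 for Ccnb1, 0.837 for Cdc20, 0.886 for Plk1, 0.789 for Aurkb, 0.855 for Bub1, 0.819 for Ndc80, 0.840 for Kif11 and 0.871 for Prc1. In the peripheral cultures the Ndr culture of mouse 1220 stood apart upward in the mean of the 41 genes (0.643) and in Top2a (0.628), Ccnb1 (0.688), Cdc20 (0.892), Aurkb (0.789), Bub1 (0.628), Ndc80 (0.840) and Kif11 (0.662). The members move together, so these are not separate events.

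The WT hilar culture of mouse 1225 also had the lowest Spp1 of the 12 libraries (1242 CPM) and the highest Krt18 (6533 CPM) and Msln (658 CPM). Their part in the level of the mitosis genes was not tested.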

How the results depend on the processing

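With 3 mice a group, the raw counts gave few calls under any setting, and single cultures moved the medians. DESeq2 called 1 member in hilar organoids, against 0.28% of all genes. limma on the normalized table called 30 members there, against 9.86% of genes, and 41 in the mouse totals, against 48% of genes. With 1 culture or mouse left out, the median member difference ranged between -2.33 and -0.37 for Ndr against WT in hilar organoids, -0.064 and 0.62 in peripheral ones and -0.66 and 0.38 in mouse totals. The same ranges were -2.22 and -1.27 for hilar against peripheral in Ndr, -1.08 and 0.83 in WT, -1.44 and -0.40 over both, and -2.65 and -0.69 for the interaction. The low or high end set by WT hilar 1225 (or mouse 1225 in totals) was -0.37 in hilar, 0.38 in totals, -1.08 in WT, -1.44 over both and -0.69 for the interaction, and Ndr peripheral 1220 set -0.064. With derivation date as a factor the peripheral median was -1.25, that of mouse totals -1.57 and that of hilar against peripheral in WT -0.20. On the normalized table these were -1.41, -1.79 and -0.74, and the interaction was -0.84. limma-voom gave -0.20 in WT. With the replicate block, which pairs the cultures of a mouse, the WT value was -0.21, and no call was gained or lost. In the comparisons whose medians reversed, no test on the raw counts had called a member. Limma on the normalized table had called members there in the mouse totals.

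Member by member, the peripheral differences with date as a factor and on the normalized table were -0.85 and -1.14 for Aurkb, -1.55 and -1.76 for Bub1, -1.51 and -1.72 for Ccnb1, -0.77 and -1.12 for Cdc20, -1.23 and -1.36 for Kif11, -1.42 and -1.41 for Mki67, -0.19 and -0.23 for Ncaph, -1.49 and -1.70 for Ndc80, -1.37 and -1.61 for Plk1, -1.10 and -1.25 for Prc1, and -1.01 and -1.11 for Top2a. With 1 peripheral culture left out, the differences ranged between -0.029 and 0.88 for Bub1, -0.30 and 0.66 for Ccnb1, -0.22 and 0.48 for Kif11, -0.14 and 0.24 for Mki67, -0.023 and 0.75 for Ndc80, -0.10 and 0.48 for Plk1, and -0.17 and 0.24 for Prc1. In WT, hilar against peripheral, Cdca8, Smc2 and Cdc20 were at -0.23, -0.36 and -0.47 on the normalized table and at -0.76, -0.64 and -0.80 without WT hilar 1225, with highest values of 1.16, 0.91 and 1.05 without another WT hilar culture. In hilar organoids Bub1 was at 0.19 without WT hilar 1225, and at -2.46 at the other end, without Ndr hilar 1219. The cause of these reversals was not tested.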
